A study of Mus musculus with 14 samples.

Results

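The samples described here are hepatocytes of C57BL/6 mouse pups at postnatal day 10 (P10) in which Srsf1 was deleted in hepatocytes, set against hepatocytes of control pups of the same age. The knockout group, hepatocyte knockout or HKO, had the genotype srsf1f/f;albcre+/-, in which floxed Srsf1 alleles are recombined by a Cre transgene under the albumin promoter, active in hepatocytes and their precursors. The control group had the genotype albcre+/-, so both groups carried Cre, neither received a treatment, and the controls are not described as carrying the floxed alleles. Differences between the mouse lines therefore cannot be told apart from the knockout. There were 2 libraries a group, 4 of the 14 libraries of the series; 4 further libraries, from the same genotypes at 1 month of age, served to estimate the spread and for a comparison of ages. Polyadenylated RNA of purified hepatocytes was sequenced, and the values are in TPM, a transcript's share among all transcripts of its library after correction for length, scaled to a fixed total. Of 54446 genes in the deposited table, 12327 averaged 1 TPM or more in the 4 P10 libraries and were kept and tested. Whether replicates came from different animals is not in the labels, so p-values measure the spread between these samples, which may be technical. By their sex RNAs, given below, the 2 P10 HKO libraries came from different animals. TPM keep no read depth, which is unknown here. With 2 libraries a group an exact two-sided permutation test of a single gene cannot go below p = 0.333, and the tests below borrow spread across genes.

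SRSF1 is an SR protein, a factor with RNA recognition motifs and an arginine and serine rich tail that binds exonic enhancers, promotes the use of nearby splice sites, and also takes part in RNA export, translation and genome stability. Hepatocytes at this age are still maturing: they secrete most plasma proteins, carry out urea synthesis and detoxification, and make hepcidin, the peptide hormone that restrains iron release by causing breakdown of the exporter ferroportin. Injured liver is known to switch on several programmes, among them the NRF2 response to electrophiles, the integrated stress response run by ATF4, p53 targets, and secretory epithelial genes usually low in mature hepatocytes.

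The libraries were checked before the results. To remove shifts of composition, TPM were divided by a median-ratio factor of 0.896 and 0.911 for the controls and 1.15 and 1.07 for the HKO libraries. The quotients are called rescaled TPM, and replicate 1 comes first in each pair of values. HKO replicate 2 stood apart from the other 3: Xist, the RNA of the inactive X chromosome, measured 69.9 rescaled TPM there and at most 0.00889 in the others, while Y-linked genes summed to 0.147 against 74.5, 69.7 and 48.7. By these RNAs it holds a female sample and the others male samples. The 16 erythroid markers in the table summed to 2870.3 in it and to 376 to 545 in the other 3, and neutrophil markers to 806 against 237 to 316. Of the 14 tested, no erythroid marker passed in limma, with 2 at an unadjusted p under 0.05 and 1 called lower in the authors' deposited table; 11 were higher without HKO replicate 1. Of 229 named genes that passed, 127 still passed without HKO replicate 2, 182 without HKO replicate 1, 80 without control replicate 1 and 100 without control replicate 2. The 15 hepatocyte identity markers, Alb, Ttr and Apoa1 among them, summed to 185883 and 176410.0 rescaled TPM in the controls and 107420.0 and 96283 in the HKO libraries. Endothelial markers summed to 199 and 197 against 189 and 188, stellate cell markers to 374 and 408 against 305 and 254, and macrophage and Kupffer cell markers to 608 and 627 against 887 and 713. No endothelial marker passed in limma or at an unadjusted p under 0.05, and the authors' deposited table called 1 lower. The labelled cell type thus dominated all 4 libraries. In bulk samples fewer cells of a type and less RNA per cell cannot be told apart.

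The targeted gene was lower in both HKO libraries. Srsf1 (chromosome 11, 88047373 to 88053755, plus strand, GRCm38) measured 48.7 and 50.99 rescaled TPM in the controls and 26.1 and 21.9 in the HKO libraries. The groups did not overlap, and the HKO mean was 48.2% of the control mean (log2FC -1.03, SE 0.16, adjusted p = 0.00877, limma with Benjamini-Hochberg adjustment over all genes tested; adjusted p = 0.0611 without HKO replicate 2). The main coding transcript Srsf1-201 went from 20.3 and 21.2 to 13.7 and 11.8 rescaled TPM, while Srsf1-204, annotated as a target of nonsense-mediated decay, went from 7.42 and 6.18 to 1.13 and 1.004. Srsf1-203, annotated with a retained intron, went from 8.24 and 9.55 to 2.24 and 1.30. All 3 were lower in both HKO libraries than in both controls, and the test of unequal transcript change did not pass for Srsf1 (adjusted p = 0.218). The deleted exons are not named in the sources used here, and RNA that keeps part of Srsf1 after recombination would still be counted.

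Across all genes 1040 of 12327 were higher in the HKO libraries (8.44%) and 980 lower (7.95%), together 16.4% of those tested, which is the background for the counts below. All gene lists below and their members were chosen with earlier results of these data known. A list count above this background is therefore a description and no independent evidence. These counts depend on the scaling, since the log2 fold change of a gene was higher by a median of 0.26 on the deposited TPM and of 0.32 on TPM recomputed over coding genes without mitochondrially encoded genes (coding-gene TPM, 10520 genes tested). On the deposited TPM 1517 genes were higher (12.3%) and 255 lower (2.07%). On coding-gene TPM 3769 were higher (35.8%) and 392 lower (3.73%), against which the counts on that scale below are to be read. Thus lower genes were 48.5% of calls on rescaled TPM, 14.4% on the deposited TPM and 9.42% on coding-gene TPM. The authors' deposited table called 2576 genes higher and 2269 lower. Of the 2020 calls made here, 1966 were called in the same direction in the authors' deposited table. Leaving out control replicate 1, control replicate 2, HKO replicate 1 or HKO replicate 2 gave 205, 252, 765 and 363 higher genes, and counts with 1 library left out are given below in this order. Directions are relative to the median gene. The P10 groups did not overlap in 8853 of the 12327 tested genes (71.8%), so a lack of overlap in a named gene is common. In parentheses, levels are rescaled TPM of both controls against both HKO libraries, and log2FC is the log2 fold change, HKO over control.

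Most other genes of the splicing machinery did not pass. Of the other 11 tested SR proteins, Srsf9 alone passed, as higher, at 21.4 and 23.6 rescaled TPM in the controls and 29.2 and 31.98 in the HKO libraries (log2FC 0.43, SE 0.10, adjusted p = 0.0352). The remaining 10 had log2FC of -0.27 to 0.41. The nearest to the threshold was Srsf4 (12.9 and 13.8 against 16.6 and 19.6, log2FC 0.41, adjusted p = 0.0716). Srsf5, the one with a negative value, measured 181 and 181 against 139.8 and 159.9 (log2FC -0.27, adjusted p = 0.496). Of these 10, the authors' deposited table called Srsf4 (log2FC 0.42) and Srsf10 (log2FC 0.34) higher. Of 42 core spliceosome genes 3 rose: Prpf31 (log2FC 0.43) and Eftud2 (log2FC 0.39), which act in the tri-snRNP, and the Sm protein gene Snrpf (log2FC 0.43). That share is below the 8.44% over all genes. None of them, nor Srsf9, passed without HKO replicate 2, whereas on coding-gene TPM 28 spliceosome genes and 8 SR proteins were called higher, beside 35.8% of all genes there. Ddx21 (a nucleolar helicase that resolves R-loops) rose from 6.69 and 7.49 to 13.03 and 13.9 rescaled TPM (log2FC 0.84, SE 0.13, adjusted p = 0.00788, and 0.0602 without HKO replicate 2), as the only called gene of 20 R-loop and THO factors; no gene of that list passed without HKO replicate 2. None of 6 SR protein kinases, 24 hnRNP genes, 18 nonsense-mediated decay factors or 33 DNA damage signalling and repair genes passed in limma. At an unadjusted p under 0.05 there were 0, 4, 5 and 3, and the authors' deposited table called 0, 2, 2 and 3. Their median log2FC were -0.07, 0.11, 0.23 and 0.02, beside 0.01 over all genes. On coding-gene TPM the calls in these lists were 1, 16, 11 and 11, all higher, beside 35.8% of all genes.

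The largest rise belonged to the hepcidin gene Hamp, described with iron handling below. Secreted and surface products of epithelia followed. Slpi, an inhibitor of leukocyte proteases, measured 0.640 and 0.521 rescaled TPM in the controls and 46.8 and 69.02 in the HKO libraries (log2FC 5.19, SE 0.18, adjusted p = 5.24e-05). The trefoil peptide gene Tff3, a product of mucous epithelia, measured 2.58 and 2.98 in the controls and 76.4 and 112 in the HKO libraries (log2FC 4.63, SE 0.19, adjusted p = 0.000106). The surface protein gene Ly6d (0.802 and 0.791 against 42.1 and 35.2, log2FC 4.46) and the tight junction gene Cldn4 (0.0156 and 0.0383 against 9.30 and 9.91, log2FC 3.37) rose too. So did Sprr1a, a precursor of the cornified envelope (0.147 and 0 against 14.8 and 29.4, log2FC 4.36), and Spink1, a trypsin inhibitor (13.1 and 12.8 against 121 and 214, log2FC 3.54). All were under 3 rescaled TPM in the controls except Spink1, and no control reached an HKO library. Ubd, a ubiquitin-like modifier induced by inflammatory cytokines, rose from 1.29 and 1.03 to 84.9 and 73.3 (log2FC 5.21), and Ifi27l2b from 1.66 and 1.52 to 39.3 and 43.5 (log2FC 4.03). Gstm3, a glutathione transferase, reached 90.7 and 139 from 4.78 and 4.08 (log2FC 4.39), and Trib3, a pseudokinase gene downstream of ATF4, 11.2 and 21.4 from 0.710 and 0.587 (log2FC 3.33). The lipid droplet gene Cidec (0.521 and 0.376 against 13.7 and 17.6, log2FC 3.52) rose as well and did not pass without HKO replicate 2 (adjusted p = 0.056). The HKO libraries differed from each other in Bex1 (5.99 and 7.82 against 60.9 and 119, log2FC 3.46), where replicate 2 was higher. In Mmp12, the macrophage elastase gene, replicate 1 was higher (0.101 and 0.138 against 18.3 and 6.08, log2FC 3.38). Both libraries exceeded both controls in these genes.

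The largest falls were in secreted peptides, detoxification enzymes and a ribosomal protein gene. Prok1 (chromosome 3, 107232797 to 107239707, minus strand), the gene of the secreted peptide prokineticin 1, measured 38.9 and 35.1 rescaled TPM in the controls and 1.49 and 0.617 in the HKO libraries (log2FC -4.24, SE 0.20, adjusted p = 0.000184). Igfals, the acid-labile subunit that holds IGF-1 in the circulation, measured 65.7 and 63.4 in the controls and 12.2 and 9.39 in the HKO libraries (log2FC -2.48, SE 0.17, adjusted p = 0.000847). No HKO value came near a control in either gene. Among enzymes the sulfotransferases Sult2a2 (347 and 323 against 30.9 and 11.6, log2FC -4.07), Sult2a1 (345 and 313 against 76.3 and 29.6, log2FC -2.76) and Sult2a5 (112 and 90.9 against 21.7 and 10.7, log2FC -2.65) fell. The cytochrome P450 Cyp2c69 fell with them (53.3 and 44.2 against 5.004 and 1.90, log2FC -3.57); these enzymes have near-identical copies, between which reads could be split. The carboxylesterase Ces3a (51.4 and 44.4 against 6.09 and 6.33, log2FC -2.76), the steroid dehydrogenase Hsd17b6 (127 and 102 against 29.2 and 14.6, log2FC -2.41) and the glucuronosyltransferase Ugt2a3 (21.98 and 17.6 against 4.26 and 2.30, log2FC -2.31) fell too. Keg1 (29.7 and 22.96 against 5.63 and 3.41, log2FC -2.33) and Pcp4l1 (16.1 and 18.9 against 3.09 and 1.30, log2FC -2.59) fell as well. HKO replicate 2 was the lowest library in each of these 9 enzymes and genes but Ces3a; Sult2a1 did not pass without it (adjusted p = 0.152). The mitochondrial tRNA genes mt-Tp (202 and 292 against 41.1 and 28.4, log2FC -2.79) and mt-Tn (9.03 and 12.9 against 1.46 and 0.736, log2FC -2.51) were also lower and did not pass without HKO replicate 2 (adjusted p = 0.0956 and 0.089). Transfer RNAs are short and the libraries held polyadenylated RNA, so the levels of these tRNA genes are uncertain. Rpl29, a protein of the large ribosomal subunit, measured 214 and 223 in the controls and 19.8 and 19.99 in the HKO libraries (log2FC -3.39, SE 0.11, adjusted p = 5.24e-05) and is taken up with transcript usage.

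**Figure D1:**
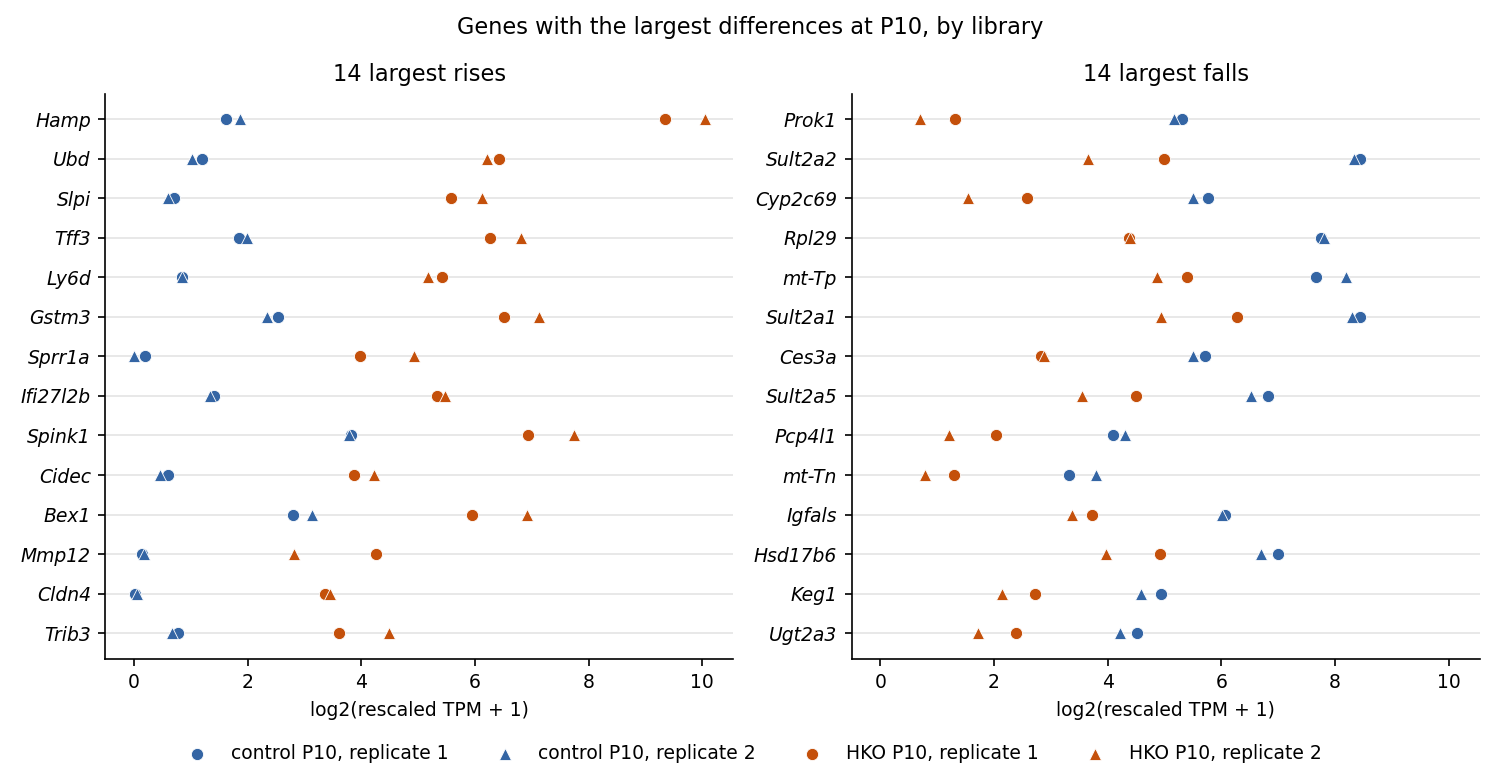
Rescaled TPM of the 14 largest rises (left) and 14 largest falls (right) at P10 as log2(rescaled TPM + 1), 1 point per library, controls in blue and HKO in orange, replicate 1 as circles and replicate 2 as triangles. All 28 were picked among genes whose groups did not overlap, which held for 71.8% of all tested genes. Hamp lies at 2.08 and 2.64 against 649 and 1056 rescaled TPM.

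Iron handling was examined around hepcidin. Hamp (chromosome 7, 30942368 to 30944032, minus strand) measured 2.08 and 2.64 in the controls and 649 and 1056 in the HKO libraries, and the groups were far apart (log2FC 7.95, SE 0.39, adjusted p = 0.000199). Its log2 fold change was 8.47 in the authors' deposited table. Hamp2, its neighbour on chromosome 7 and a near-identical copy, went the other way, with 7.26 and 4.40 in the controls and 0.0399 and 0.201 in the HKO libraries (log2FC -2.58, SE 0.32, adjusted p = 0.0047). Reads could be split between these copies, so the Hamp2 values are uncertain. The bases before the start of both genes are shown because the measured values of the copies moved in opposite directions. Known inputs to the Hamp promoter are a BMP-responsive element (GGCGCC), bound by SMAD proteins, and a STAT element (TTCNNNGAA), bound by STAT3 after interleukin-6. Both strands of the 250 bases before each start in RefSeq's promoter table (GRCm38.p6) were searched for these letters; the windows are chr7:30944030-30944279 and chr7:30924182-30924431, both on the minus strand, printed 5′ to 3′ with matches in capitals.
Hamp: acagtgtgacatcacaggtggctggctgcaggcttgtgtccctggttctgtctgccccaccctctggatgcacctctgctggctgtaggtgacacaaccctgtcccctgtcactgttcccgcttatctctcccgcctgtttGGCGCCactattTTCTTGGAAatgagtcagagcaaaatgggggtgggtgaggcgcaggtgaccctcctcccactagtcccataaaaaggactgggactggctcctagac
Hamp2: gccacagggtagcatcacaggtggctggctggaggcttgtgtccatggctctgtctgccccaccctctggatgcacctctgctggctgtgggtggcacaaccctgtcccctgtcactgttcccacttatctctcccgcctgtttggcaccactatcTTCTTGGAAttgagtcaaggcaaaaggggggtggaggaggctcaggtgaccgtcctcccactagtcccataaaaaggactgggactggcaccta

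The Hamp window held both motifs and the Hamp2 window the STAT letters only. Over the 27025 gene symbols of that table, 10.8% held GGCGCC and 8.13% the STAT letters, so neither match is rare. In the list of 39 tested iron genes, 4 rose and 4 fell, near the shares over all genes (median -0.03, 0.237 on the deposited TPM). Tmprss6, the protease that restrains BMP signalling to hepcidin, measured 123 and 113 against 59.4 and 47.8 (log2FC -1.13, SE 0.12, adjusted p = 0.00294). Tfr2, a sensor of transferrin iron, measured 116 and 119 against 66.4 and 52.7 (log2FC -0.98, SE 0.13, adjusted p = 0.00581). Both fell, and both passed without HKO replicate 2. The interleukin-6 receptor subunit Il6ra fell (12.5 and 12.00 against 8.79 and 5.30, log2FC -0.75, adjusted p = 0.0475, and 0.139 without HKO replicate 2) and its partner Il6st rose (14.4 and 14.3 against 21.3 and 19.04, log2FC 0.46, adjusted p = 0.0363, and 0.0921 without HKO replicate 2). Atoh8, a transcription factor of the BMP pathway, rose (1.35 and 1.19 against 3.86 and 2.63, log2FC 0.89, adjusted p = 0.028, and 0.0542 without HKO replicate 2), as did the ferritin light chain gene Ftl1 (1308 and 1285 against 2079 and 1961, log2FC 0.64, adjusted p = 0.0346, and 0.128 without HKO replicate 2). The BMP target gene Id1 did not pass, although its HKO libraries lay above the controls (6.84 and 6.08 against 18.4 and 21.3, log2FC 1.48, adjusted p = 0.145). Neither did Smad7, another such target (1.97 and 2.28 against 3.77 and 3.06, log2FC 0.50, adjusted p = 0.416), nor the STAT3 target Socs3, whose groups overlapped (12.6 and 11.7 against 12.8 and 10.96, log2FC -0.03, adjusted p = 0.971). The hemojuvelin gene Hfe2 (log2FC -0.10, adjusted p = 0.749) and the ligand Bmp2 (log2FC 0.17, adjusted p = 0.804) did not pass either. The iron exporter Slc40a1, ferroportin, measured 106 and 109.8 against 95.7 and 77.3 (log2FC -0.32, adjusted p = 0.16) and the transferrin receptor Tfrc 73.7 and 82.7 against 32.9 and 52.5 (log2FC -0.89, adjusted p = 0.132). In the authors' deposited table Tfrc was called lower (log2FC -0.89) and Slc40a1 was not called. Id1 (log2FC 1.598) and Smad7 (log2FC 0.668) were called higher there, and Socs3, Hfe2 and Bmp2 were not called. Id2 and Id3, also on the list, were called higher there too (log2FC 1.146 and 1.206). Neither passed in limma (adjusted p = 0.131 and 0.448). The BMP targets thus lay higher in the authors' calls and short of the threshold here. The erythroid markers, high in HKO replicate 2, are given above, and their part in the Hamp values was not tested. The higher count of the list was 1, 1, 1 and 1 with 1 library left out, and 7 on the deposited TPM and 12 on coding-gene TPM. The lower count was 2, 2, 4 and 3 with 1 library left out, and 1 on the deposited TPM and 3 on coding-gene TPM.

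Most listed genes of injured and secretory epithelium rose. Of 33 tested members 26 were higher and none lower, with a median log2 fold change of 1.46; the list was drawn up with these rises already known and its count is no independent evidence. Clu, the secreted chaperone clusterin, measured 353 and 331 in the controls and 1625 and 1598 in the HKO libraries (log2FC 2.23, SE 0.10, adjusted p = 0.000184). The siderophore binder Lcn2 measured 34.1 and 38.3 against 212 and 338 (log2FC 2.86, SE 0.23, adjusted p = 0.00129). Both genes had non-overlapping groups. The 26 rises spanned 0.65 to 5.19. Counts were 18, 19, 25 and 22 with 1 library left out. Cholangiocyte markers, which this list overlaps, gave 4 higher and 1 lower of 10. Cldn4, Cldn7 (0.710 and 1.01 against 10.4 and 15.2, log2FC 2.87), Anxa13 (0.426 and 0.572 against 2.81 and 6.49, log2FC 1.83) and Bicc1 (log2FC 1.36) rose. Several defining ductal genes did not pass: Epcam measured 0.615 and 0.792 against 1.47 and 1.86 (log2FC 0.65, adjusted p = 0.063), Sox9 1.58 and 1.52 against 2.68 and 2.66 (log2FC 0.52, adjusted p = 0.058) and Spp1 60.97 and 73.4 against 88.7 and 122 (log2FC 0.63, adjusted p = 0.319). The authors' deposited table called Epcam (log2FC 1.22), Sox9 (log2FC 0.77) and Spp1 (log2FC 0.63) higher. The ductal markers summed to 117 and 124 in the controls and 165 and 238 in the HKO libraries, and their part in the result was not tested. Of 20 oncofetal and fetal liver genes 3 rose and 3 fell, and the sign of the median turned with the scaling (-0.02, 0.265 on the deposited TPM). Afp, the fetal counterpart of albumin, measured 1236 and 1612 in the controls and 5315 and 7955 in the HKO libraries (log2FC 2.20, SE 0.23, adjusted p = 0.00278), with no overlap. The imprinted growth factor gene Igf2 (2216 and 2165 against 1234 and 1326, log2FC -0.78, adjusted p = 0.011, and 0.0502 without HKO replicate 2) and the imprinted cell cycle inhibitor Cdkn1c (68.8 and 70.8 against 30.5 and 29.4, log2FC -1.19, adjusted p = 0.00226) fell. Without HKO replicate 2 the list had 1 higher and 1 lower gene.

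NRF2 is a transcription factor held down by KEAP1 that, once released, joins a small MAF protein and activates genes of glutathione use and of NADPH supply. Of its 40 tested targets and glutathione genes 26 were higher and none lower (median 0.80). Ugdh, which makes the sugar donor for glucuronidation, measured 7.24 and 7.92 rescaled TPM in the controls and 42.4 and 51.6 in the HKO libraries (log2FC 2.48, SE 0.21, adjusted p = 0.0015). The glutathione transferase Gsta1 measured 0.164 and 0.144 against 6.31 and 11.5 (log2FC 3.05), Gstm1 117 and 101 against 367 and 376 (log2FC 1.76) and the pentose phosphate enzyme Pgd 17.4 and 17.2 against 32.4 and 34.1 (log2FC 0.90). In each both controls lay below both HKO libraries; Gsta and Gstm genes have near-identical copies and are uncertain singly. Of 9 regulators 3 rose: the small MAF genes Maff (1.19 and 0.831 against 5.46 and 6.31, log2FC 1.78, adjusted p = 0.00239) and Mafk (1.59 and 1.79 against 4.70 and 6.14, log2FC 1.25, adjusted p = 0.00294) and Nfe2l2, which encodes NRF2 (30.1 and 28.2 against 39.5 and 45.2, log2FC 0.52, adjusted p = 0.0273, and 0.15 without HKO replicate 2). Keap1 did not pass (11.8 and 11.4 against 12.8 and 13.5, log2FC 0.16, adjusted p = 0.397), nor did its ligase partners Cul3 (log2FC -0.06) and Rbx1 (log2FC 0.21). The same held for Bach1, a repressor of the same sites (log2FC 0.40, adjusted p = 0.0677), Mafg (log2FC 0.23) and Nfe2l1 (log2FC -0.17). The authors' deposited table called Bach1 higher (log2FC 0.46) and did not call Keap1, Cul3, Rbx1, Mafg or Nfe2l1. The target count was 9, 10, 19 and 13 with 1 library left out.

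The integrated stress response begins when kinases such as PERK phosphorylate the initiation factor eIF2 and translation of ATF4 goes up. Of 30 tested genes of this response 19 were higher and none lower (median 0.93). The transcription factor Atf3 measured 4.89 and 4.13 rescaled TPM in the controls and 18.3 and 30.5 in the HKO libraries (log2FC 2.16, SE 0.23, adjusted p = 0.00294). Psat1 (4.37 and 5.86 against 15.98 and 23.7, log2FC 1.76) and Psph (3.86 and 4.51 against 8.26 and 9.59, log2FC 0.94), both of serine synthesis, and the amino acid transporter chain Slc3a2 (17.97 and 20.6 against 38.6 and 42.3, log2FC 1.03) followed. All 4 had non-overlapping groups, and the 19 rises spanned 0.65 to 3.33. The count was 5, 6, 17 and 10 with 1 library left out, and 12 with no filter on low TPM. Chaperones of the endoplasmic reticulum and genes of the unfolded protein response gave 3 higher and 1 lower of 23, with a median of 0.07. The rises were in stress sensors: Ern1, which encodes IRE1 (4.87 and 4.78 against 7.19 and 7.69, log2FC 0.53), Atf6 (5.78 and 5.84 against 7.76 and 7.91, log2FC 0.38) and Eif2ak3, which encodes PERK (4.52 and 3.68 against 5.99 and 7.30, log2FC 0.58). Sel1l, of the degradation machinery, fell (43.1 and 41.9 against 29.2 and 25.7, log2FC -0.62), and the main chaperone Hspa5 did not pass (304 and 334 against 408 and 421, log2FC 0.38, adjusted p = 0.0735). The authors' deposited table called Hspa5 higher (log2FC 0.36). The higher count here was 0, 0, 1 and 0 with 1 library left out, but 12 on coding-gene TPM. Of 17 cytosolic heat shock genes 5 rose, and the smallest p was that of Hspb1, a small heat shock protein (0.101 and 0.117 against 5.49 and 6.25, log2FC 2.63). Hsp90aa1 (73.7 and 83.7 against 117 and 128, log2FC 0.64) and Hsph1 (log2FC 0.66) were others. Without HKO replicate 2, Hspb1 was the 1 that passed, and on coding-gene TPM 12 did.

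The 250 bases before the start are shown for 5 genes of these responses, with matches to 1 motif each in capitals, to set the responses' known control letters beside the measured values (RefSeq, GRCm38.p6, 5′ to 3′, on the minus strand except Hspa5 on the plus strand). For NRF2 the letters were the core of the antioxidant response element (TGACNNNGC), searched on both strands; Ugdh (chr5:65435843-65436092) held 2 matches. For the integrated stress response they were the C/EBP-ATF composite element (TGATGNAA), in Atf3 (chr1:191183334-191183583), Asns (chr6:7693210-7693459) and Nupr1 (chr7:126625471-126625720). For the unfolded protein response they were the endoplasmic reticulum stress element (CCAAT and CCACG with 9 free bases between), in Hspa5 (chr2:34771840-34772089). Asns, asparagine synthetase, rose (6.31 and 7.25 against 24.6 and 29.2, log2FC 1.84, adjusted p = 0.0246, and 0.141 without HKO replicate 2), and so did Nupr1, a small stress-induced chromatin protein (2.52 and 1.73 against 12.4 and 26.1, log2FC 2.62, adjusted p = 0.00644). These genes and Hspa5 were picked after their values were seen.
Ugdh: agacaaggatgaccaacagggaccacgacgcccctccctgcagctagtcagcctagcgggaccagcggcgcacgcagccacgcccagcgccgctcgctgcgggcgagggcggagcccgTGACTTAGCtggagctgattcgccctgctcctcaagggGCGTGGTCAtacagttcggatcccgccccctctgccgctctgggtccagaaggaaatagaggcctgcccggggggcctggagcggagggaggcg
Atf3: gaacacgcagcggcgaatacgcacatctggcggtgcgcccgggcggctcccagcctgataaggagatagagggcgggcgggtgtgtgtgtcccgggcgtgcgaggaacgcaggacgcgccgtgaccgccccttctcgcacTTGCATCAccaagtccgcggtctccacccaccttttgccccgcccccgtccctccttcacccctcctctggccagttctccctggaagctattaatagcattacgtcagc
Asns: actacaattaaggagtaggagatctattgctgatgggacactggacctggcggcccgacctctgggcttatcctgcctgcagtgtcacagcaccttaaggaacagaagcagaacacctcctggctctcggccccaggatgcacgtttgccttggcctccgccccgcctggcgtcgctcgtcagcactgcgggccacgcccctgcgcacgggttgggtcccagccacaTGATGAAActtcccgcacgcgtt
Nupr1: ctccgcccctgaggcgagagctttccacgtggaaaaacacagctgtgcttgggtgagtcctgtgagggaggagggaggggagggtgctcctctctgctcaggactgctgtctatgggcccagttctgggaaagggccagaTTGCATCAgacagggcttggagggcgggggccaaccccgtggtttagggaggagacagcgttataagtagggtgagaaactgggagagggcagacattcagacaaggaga
Hspa5: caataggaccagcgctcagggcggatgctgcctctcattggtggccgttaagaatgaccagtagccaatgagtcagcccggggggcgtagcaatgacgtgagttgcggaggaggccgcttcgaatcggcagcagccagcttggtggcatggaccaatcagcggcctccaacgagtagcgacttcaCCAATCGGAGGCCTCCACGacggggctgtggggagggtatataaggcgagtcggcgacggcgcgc

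Of list genes with an entry in that table, 8 of 36 NRF2 targets held the antioxidant core (11.5% of all symbols), 10 of 30 stress response genes the composite element (3.91%), and 9 of 20 chaperone and unfolded protein response genes the stress element (0.130%). By match, 3 of 8 tested NRF2 targets with a match and 19 of 26 without were higher. The same counts were 5 of 7 and 12 of 18 for the stress response genes, and 0 of 8 and 2 of 11 for the chaperones. A match is a description of letters in this window, not a bound site.

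Targets of p53, the factor stabilised by DNA damage and other stress, gave 12 higher and 3 lower of 32 (median 0.65). Phlda3, a brake on AKT, measured 0.716 and 0.619 rescaled TPM in the controls and 4.59 and 5.73 in the HKO libraries (log2FC 1.88, SE 0.16, adjusted p = 0.0015). The cell cycle inhibitor Cdkn1a, named after its values were seen, measured 5.80 and 4.68 against 19.04 and 24.6 (log2FC 1.87, adjusted p = 0.015, and 0.104 without HKO replicate 2). The pore-forming Bax (11.8 and 12.9 against 24.1 and 29.7, log2FC 1.06), the death receptor Tnfrsf10b (0.352 and 0.419 against 1.64 and 2.04, log2FC 1.03), Psrc1 (log2FC 1.36) and Ddit4l (log2FC 1.42) rose as well. No control overlapped an HKO library in these genes. Fas, another death receptor, fell (31.4 and 28.6 against 17.9 and 14.2, log2FC -0.87, adjusted p = 0.00732), with the thiamine transporter Slc19a2 (log2FC -0.55) and the xylulose reductase Dcxr (log2FC -0.83). The higher count was 4, 6, 14 and 8 with 1 library left out, and 19 on the deposited TPM and 20 on coding-gene TPM; on these 2 scales none of the list was called lower. Of 24 cell death genes 6 rose and 1 fell; Mlkl, the executor of necroptosis (3.08 and 2.90 against 7.64 and 6.82, log2FC 1.04), and the pyroptosis pore gene Gsdmd (11.3 and 10.1 against 19.7 and 15.8, log2FC 0.67) were among the rises, and 3 of the list were higher without HKO replicate 2. Of 32 mitotic genes 3 rose, near the 8.44% over all genes: Plk1 (4.87 and 5.08 against 7.69 and 8.71, log2FC 0.62), Kif23 (log2FC 0.61) and Aurka (log2FC 0.55). All 32 had a positive log2FC (median 0.36). The authors' deposited table called 17 of them higher and 0 lower, beside 13.4% and 11.8% of its genes. Of 32 replication and G1 to S genes that table called 11 higher and 3 lower. In limma Mcm2 (log2FC 0.63), Cdt1 (log2FC 0.52) and Uhrf1 (log2FC 0.39) rose, again near the 8.44% over all genes. That replication count was 0, 0, 3 and 1 with 1 library left out, and 8 on the deposited TPM and 16 on coding-gene TPM. For mitotic genes the count was 17 on the deposited TPM and 23 on coding-gene TPM, and no mitotic gene passed without HKO replicate 2. Of 22 immediate early genes, which can also rise while cells are isolated, 7 rose. Klf6 (6.18 and 5.64 against 12.5 and 15.6, log2FC 1.12), Cyr61 (11.7 and 12.2 against 40.8 and 47.5, log2FC 1.80) and Ier3 (log2FC 1.32) were among them, and 3 of the list passed without HKO replicate 2.

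Inflammatory signals were mixed. Of 37 interferon-stimulated genes 10 rose and none fell (median 0.35). The chemokine gene Cxcl10 measured 7.70 and 7.81 rescaled TPM in the controls and 52.6 and 52.4 in the HKO libraries (log2FC 2.61, SE 0.10, adjusted p = 5.82e-05), with less than 1 rescaled TPM between libraries of a group. Ly6e (176 and 164 against 387 and 367, log2FC 1.15) and Oasl1 (1.07 and 1.43 against 3.62 and 4.37, log2FC 1.15) rose beside Ubd and Ifi27l2b. The 250 bases before the start of Cxcl10 (chr5:92348890-92349139, minus strand, RefSeq, GRCm38.p6) are shown because its rise passed and it holds the core letters of the interferon-stimulated response element (GAAA repeated after 2 free bases, both strands), in capitals.
Cxcl10: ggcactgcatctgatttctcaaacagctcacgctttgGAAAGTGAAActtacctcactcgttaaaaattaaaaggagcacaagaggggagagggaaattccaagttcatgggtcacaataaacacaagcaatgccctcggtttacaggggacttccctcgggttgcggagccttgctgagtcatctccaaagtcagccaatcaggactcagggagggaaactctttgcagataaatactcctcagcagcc

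Those letters stood before 14 of 28 genes of the list with an entry and 3.46% of all symbols; 2 of 14 tested genes with a match and 6 of 14 without were higher. The interferon count was 5, 5, 6 and 6 with 1 library left out, and 16 on the deposited TPM and 21 on coding-gene TPM. Antigen presentation gave 9 higher genes of 18 and no lower one (median 0.82). The class II invariant chain Cd74 measured 19.5 and 14.9 in the controls and 140.0 and 86.7 in the HKO libraries (log2FC 2.62, SE 0.39, adjusted p = 0.00766), and H2-Ab1 8.89 and 6.83 against 31.2 and 24.8 (log2FC 1.71). Replicate 1 was the higher HKO library in both, and macrophage markers were also highest there. Of 25 macrophage and Kupffer cell markers 7 rose and none fell in limma, with a median of 0.13. Cd9, also an epithelial tetraspanin, had the highest level of the 7 (17.4 and 17.02 against 66.8 and 89.3, log2FC 2.10). Gpnmb (0.0975 and 0.115 against 14.4 and 4.08, log2FC 3.00) and Trem2 (0.391 and 0.325 against 4.84 and 2.43, log2FC 1.72), both of lipid-laden macrophages, rose from lower levels. Cd14 (log2FC 2.06), Ccr2 (log2FC 1.38), Itgax (log2FC 1.07) and Cd68 (log2FC 1.07) were the others. The resident Kupffer markers Clec4f (68.1 and 62.7 against 73.5 and 69.5, log2FC 0.13, adjusted p = 0.902), Vsig4 (log2FC -0.32), Marco (log2FC -0.27) and Timd4 (log2FC -0.12) did not pass. Neither did Adgre1 (16.3 and 18.2 against 17.5 and 12.4, log2FC -0.21) or Csf1r (log2FC -0.24), shared by most macrophages. The authors called 11 markers of the list higher and 1 lower in their deposited data. Cd163, another macrophage marker, was called lower there (log2FC -1.592). Clec4f, Vsig4, Marco, Timd4, Adgre1 and Csf1r were not called there. The part of these cells in the class II rises was not tested. The antigen presentation count was 1, 1, 6 and 8 with 1 library left out, and the macrophage marker count 3, 3, 6 and 6 with 1 library left out.

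Acute phase genes, which inflammation raises in hepatocytes, split: 5 of 29 rose and 10 fell (median -0.18, but 0.112 on the deposited TPM). Beside Lcn2, the interleukin-1 antagonist Il1rn (5.07 and 3.05 against 12.5 and 14.3, log2FC 1.54) and Saa3 (4.54 and 3.95 against 8.77 and 16.95, log2FC 1.34) rose. The metal-binding Mt1 (153 and 93.9 against 249 and 213, log2FC 0.94) and Mt2 (62.7 and 23.9 against 141 and 106, log2FC 1.63) rose as well. The lipopolysaccharide-binding protein Lbp (112 and 96.8 against 54.9 and 45.6, log2FC -1.04, adjusted p = 0.0044) and the inhibitor chain Itih4 (1224 and 1209 against 576 and 574, log2FC -1.08, adjusted p = 0.00661) fell. Serpina3m fell with them (435 and 388 against 198 and 143, log2FC -1.28, adjusted p = 0.00603). No HKO library reached a control in these 3 genes. Higher counts were 4, 2, 5 and 2 with 1 library left out, and lower counts 0, 2, 9 and 5 with 1 library left out. On other scales the lower count was 4 on the deposited TPM and 7 on coding-gene TPM. Signals secreted by or acting on the liver split likewise, with 8 higher and 13 lower of 40 (median -0.31, near 0 on coding-gene TPM). The EGF receptor ligand Areg was at 0 in both controls and at 6.24 and 11.7 in the HKO libraries (log2FC 3.26, SE 0.26, adjusted p = 0.00132). The stress hormones Gdf15 (3.77 and 4.45 against 17.2 and 21.5, log2FC 1.99) and Fgf21 (2.49 and 1.75 against 7.85 and 11.8, log2FC 1.78) rose. So did the monocyte attractant Ccl2 (3.14 and 3.94 against 11.2 and 13.4, log2FC 1.55), the activin antagonist Fst (log2FC 1.41) and Angptl4, an inhibitor of lipoprotein lipase (log2FC 1.23). In each of these 6 genes both HKO libraries lay above both controls. On the growth hormone axis the ligand Igf1 fell, at 335 and 331 in the controls and 151 and 121 in the HKO libraries (log2FC -1.30, SE 0.16, adjusted p = 0.00448), beside Igfals above. The chemokine Cxcl12 fell too (172 and 188 against 80.6 and 62.3, log2FC -1.33). The higher count was 5, 7, 8 and 6 with 1 library left out and the lower count 4, 6, 13 and 7 with 1 library left out, and 7 on the deposited TPM and 7 on coding-gene TPM.

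**Figure D2:**
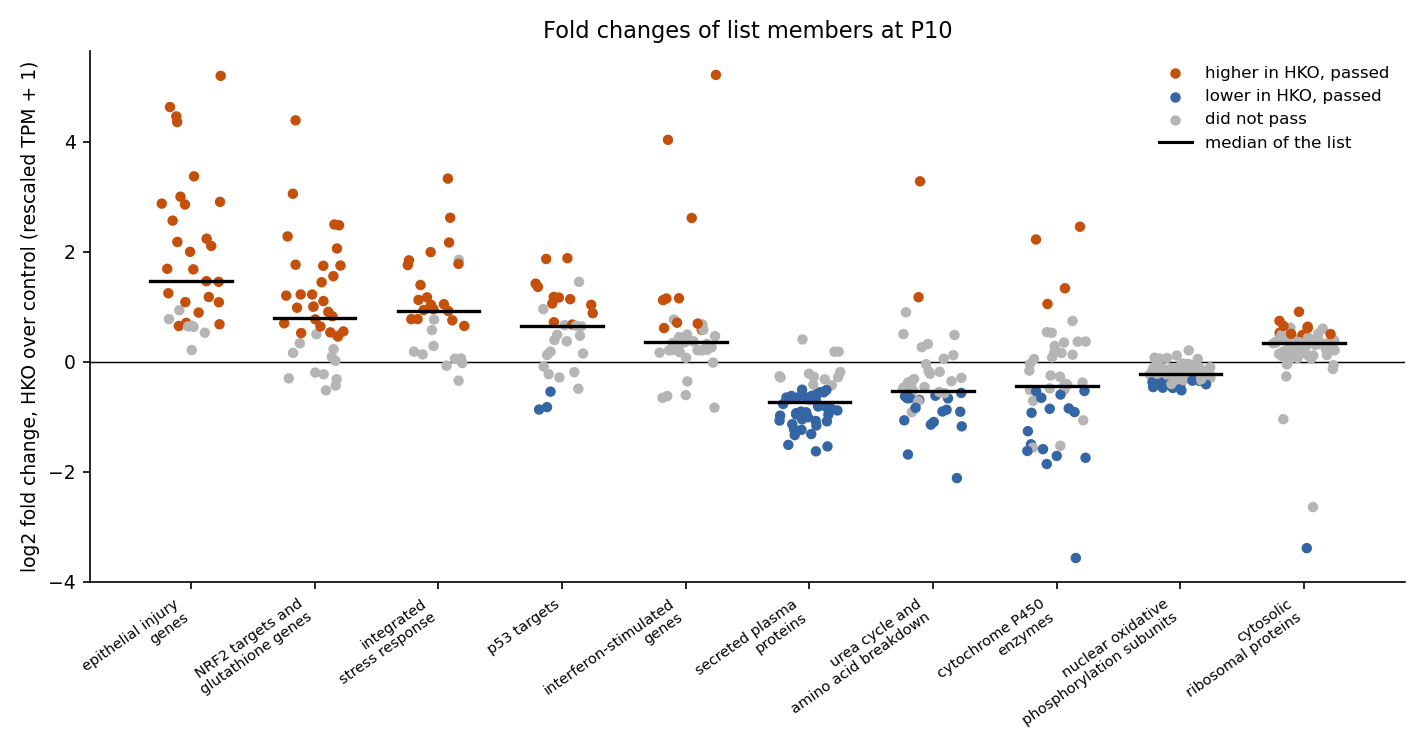
Log2 fold changes, HKO over control, of the tested members of 10 lists at P10, 1 point per gene, orange or blue where the gene passed as higher or lower and grey where it did not; the bar is the list's median. Medians run from 1.46 for epithelial injury genes to -0.74 for secreted plasma proteins, and the isolated point at -3.39 among ribosomal proteins is Rpl29.

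Most messengers of secreted plasma proteins fell. Of 50 plasma protein genes 37 were lower and none higher, with a median of -0.74. Ttr, the thyroxine carrier, measured 10397 and 9672 rescaled TPM in the controls and 3752 and 3285 in the HKO libraries (log2FC -1.51, SE 0.15, adjusted p = 0.00239). Itih1, which encodes a chain of inter-alpha-inhibitor, measured 402 and 404 against 148 and 113 (log2FC -1.63, SE 0.15, adjusted p = 0.0017). The lectin gene Mbl2 (426 and 429.7 against 206 and 196, log2FC -1.09), Fetub (364 and 315 against 149.6 and 136, log2FC -1.24) and the antitrypsin copy Serpina1d (1833 and 1733 against 796 and 797, log2FC -1.16) fell alongside. In all 5 the HKO libraries lay below both controls. The lower count was 6, 14, 31 and 19 with 1 library left out, and 12 on the deposited TPM and 22 on coding-gene TPM. Of the 15 hepatocyte identity markers 8 fell and none rose (median -0.62). Alb, albumin, measured 92670.0 and 87118 against 48228 and 39066 (log2FC -1.05, adjusted p = 0.0228, and 0.172 without HKO replicate 2). The asialoglycoprotein receptor gene Asgr1 fell (291 and 278 against 193 and 199.9, log2FC -0.53), while Hnf4a, a master regulator, did not pass (71.6 and 70.6 against 65.5 and 52.7, log2FC -0.27, adjusted p = 0.361). That count was 1, 1, 5 and 2 with 1 library left out. Of 31 hepatocyte transcription factors 8 fell and 1 rose. Foxa2 (14.99 and 14.2 against 8.26 and 8.15, log2FC -0.76), Onecut1 (6.85 and 8.66 against 4.50 and 2.96, log2FC -0.90) and Nfib (log2FC -0.44) fell. Cebpb, which also serves the acute response, rose (14.8 and 17.98 against 32.5 and 31.1, log2FC 0.92, adjusted p = 0.0133, and 0.073 without HKO replicate 2). No factor passed without HKO replicate 2 or without either control, and none was lower on the deposited TPM.

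Some members of each family of detoxification enzymes fell, and others rose in each but the glucuronosyltransferases. Of 47 cytochrome P450 genes 16 were lower and 4 higher (median -0.43). Cyp1a2, which metabolises caffeine, measured 94.7 and 94.4 against 29.3 and 21.8 (log2FC -1.86, SE 0.21, adjusted p = 0.00367). Cyp2e1, the ethanol-metabolising form, measured 1586 and 1457 against 559 and 434 (log2FC -1.62, SE 0.24, adjusted p = 0.00778, and 0.0582 without HKO replicate 2). Against the family, Cyp2d9 (39.8 and 34.8 against 166 and 189, log2FC 2.22, adjusted p = 0.000668) and Cyp2a5 (3.99 and 4.07 against 19.9 and 35.2, log2FC 2.45, adjusted p = 0.0256, and 0.156 without HKO replicate 2) rose. Cyp2c55 (3.92 and 3.21 against 14.4 and 7.57, log2FC 1.33, adjusted p = 0.0309) and Cyp2u1 (0.803 and 1.001 against 2.81 and 3.05, log2FC 1.05, adjusted p = 0.00877, and 0.0655 without HKO replicate 2) rose from lower levels. Of 14 sulfotransferases 7 fell and Sult2a6 rose (17.9 and 18.8 against 108 and 56.6, log2FC 2.03, adjusted p = 0.00622). Of 14 genes of glucuronidation 7 fell, Ugt2b1 among them (78.3 and 70.4 against 22.4 and 15.3, log2FC -1.95), and the donor enzyme Ugdh rose. Of 17 carboxylesterases and flavin monooxygenases 6 fell and 3 rose: Ces1d measured 255 and 230.4 against 109 and 73.3 (log2FC -1.43), while Ces2c went from 0.934 and 1.04 to 13.4 and 12.2 (log2FC 2.79). Opposite calls thus stood within 1 family, except for the glucuronosyltransferases. The only higher call among genes of glucuronidation was Ugdh, which is not itself a transferase. In each named gene the groups did not overlap. The lower P450 count was 4, 7, 15 and 9 with 1 library left out, and 7 on the deposited TPM and 9 on coding-gene TPM. For sulfotransferases it was 0, 1, 7 and 3 with 1 library left out. For glucuronidation it was 2, 3, 8 and 5 with 1 library left out, and for esterases 1, 3, 7 and 4 with 1 library left out.

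Of 46 urea cycle and amino acid catabolism genes 20 were lower and 2 higher (median -0.54). The tryptophan dioxygenase Tdo2 measured 186 and 155 against 47.9 and 56.6 (log2FC -1.69, SE 0.13, adjusted p = 0.00119). The tyrosine pathway enzymes Hpd (709 and 656 against 315 and 335, log2FC -1.07) and Fah (332 and 311 against 175 and 166, log2FC -0.91) fell as well. Both alanine aminotransferase genes rose. Gpt2, the mitochondrial form, went from 8.81 and 8.62 to 80.8 and 107 (log2FC 3.28, SE 0.15, adjusted p = 0.000184). Gpt went from 19.98 and 17.2 to 29.7 and 62.2 (log2FC 1.17, adjusted p = 0.0483, and 0.106 without HKO replicate 2). The lower count was 2, 4, 10 and 9 with 1 library left out, and 3 on the deposited TPM and 10 on coding-gene TPM. In bile acid handling 8 of 24 fell and 4 rose, and the median turned from -0.24 to 0.0350 on the deposited TPM. The uptake carrier Slco1b2 measured 307 and 292 against 172 and 132 (log2FC -0.98, adjusted p = 0.00639). The efflux pumps Abcc3 (7.03 and 5.77 against 16.2 and 22.3, log2FC 1.44), Abcc4 (0.546 and 0.4997 against 3.68 and 4.58, log2FC 1.75) and Abcb4 (log2FC 0.91) rose, with the conjugating enzyme Baat (7.32 and 6.34 against 37.2 and 33.8, log2FC 2.22, adjusted p = 0.000668). The 4 rises included 3 pumps that move substrates out of the cell, and the fall in uptake had no overlap with the controls. The lower count was 0, 1, 6 and 3 with 1 library left out and the higher count 3, 3, 3 and 3 with 1 library left out. Fewer genes passed in carbohydrate and lipid lists. Of 20 glucose metabolism genes 4 fell, with fructokinase Khk (95.1 and 90.4 against 50.1 and 48.9, log2FC -0.89) and Fbp1 (log2FC -0.72). Of 33 fatty acid oxidation genes 4 fell, and of 26 genes of cholesterol handling 6, with the sterol exporters Abcg5 (48.9 and 41.6 against 21.7 and 21.3, log2FC -1.04) and Abcg8 (log2FC -1.04). In lipogenesis 4 of 21 rose, led by the desaturase Scd1 (2.77 and 3.21 against 16.4 and 34.4, log2FC 2.64, adjusted p = 0.00546), with Me1 (log2FC 1.22) and Elovl6 (log2FC 1.29), although the list's median was -0.17 (0.117 on the deposited TPM). Without HKO replicate 2 the glucose and fatty acid oxidation lists had no lower call, cholesterol handling had 2 and lipogenesis 2 higher, and on coding-gene TPM 3 glucose genes were higher and 1 lower.

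Of 70 respiratory subunits encoded in the nucleus 13 were lower and none higher (median -0.23). The complex I subunit Ndufb11 had the smallest p, at 112 and 104 rescaled TPM in the controls and 74.7 and 75.4 in the HKO libraries (log2FC -0.52, SE 0.09, adjusted p = 0.0114, and 0.0556 without HKO replicate 2), and the groups did not overlap. None of the 13 passed without HKO replicate 2 or on the deposited TPM, where the list's median was 0.0670, and on coding-gene TPM 6 were higher, so the direction of this list turned with the scaling. None of the 13 mitochondrially encoded messengers passed in limma, nor at an unadjusted p under 0.05, and the authors' deposited table called 5 lower (median -0.26, 0.03005 on the deposited TPM). Of 79 cytosolic ribosomal protein genes 11 rose and Rpl29 fell (median 0.33). Rpl5 (14.02 and 12.8 against 22.5 and 30.03, log2FC 0.91), Rpl12 (8.58 and 9.13 against 13.4 and 17.8, log2FC 0.74), Rps19 (log2FC 0.61) and Rps27a (log2FC 0.65) were among the rises, each highest in HKO replicate 2. Rps13, named after its values were seen, measured 242 and 242 in the controls and 108 and 12.9 in the HKO libraries. It was lower in both HKO libraries, by very unequal amounts, and did not pass (log2FC -2.64, adjusted p = 0.073). The ribosomal count was 0, 0, 25 and 1 with 1 library left out, and 7 on the deposited TPM and 65 on coding-gene TPM; these genes have near-identical copies.

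Genes known for sex-biased expression in adult liver were examined because the HKO libraries differ in sex RNAs. Of 26 female-biased genes 12 were lower and 1 higher (median -1.52), and of 14 male-biased genes 5 were higher and 1 lower (median 0.32). Hao2, a peroxisomal oxidase and female-biased, measured 151 and 141 rescaled TPM in the controls and 38.8 and 28.7 in the HKO libraries (log2FC -2.09, SE 0.15, adjusted p = 0.000847), lowest in the library with Xist. The male-biased Cyp2d9 is given above, and Gstp1 measured 232 and 225 against 778 and 1169 (log2FC 2.06, SE 0.28, adjusted p = 0.00617), highest in that library. The library with Xist thus held the lowest Hao2 and the highest Gstp1 of the 4, and the part of sex in these results was not tested. The lower female-biased count was 3, 7, 11 and 8 with 1 library left out, and the higher male-biased count 1, 1, 4 and 2 with 1 library left out.

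**Figure D3:**
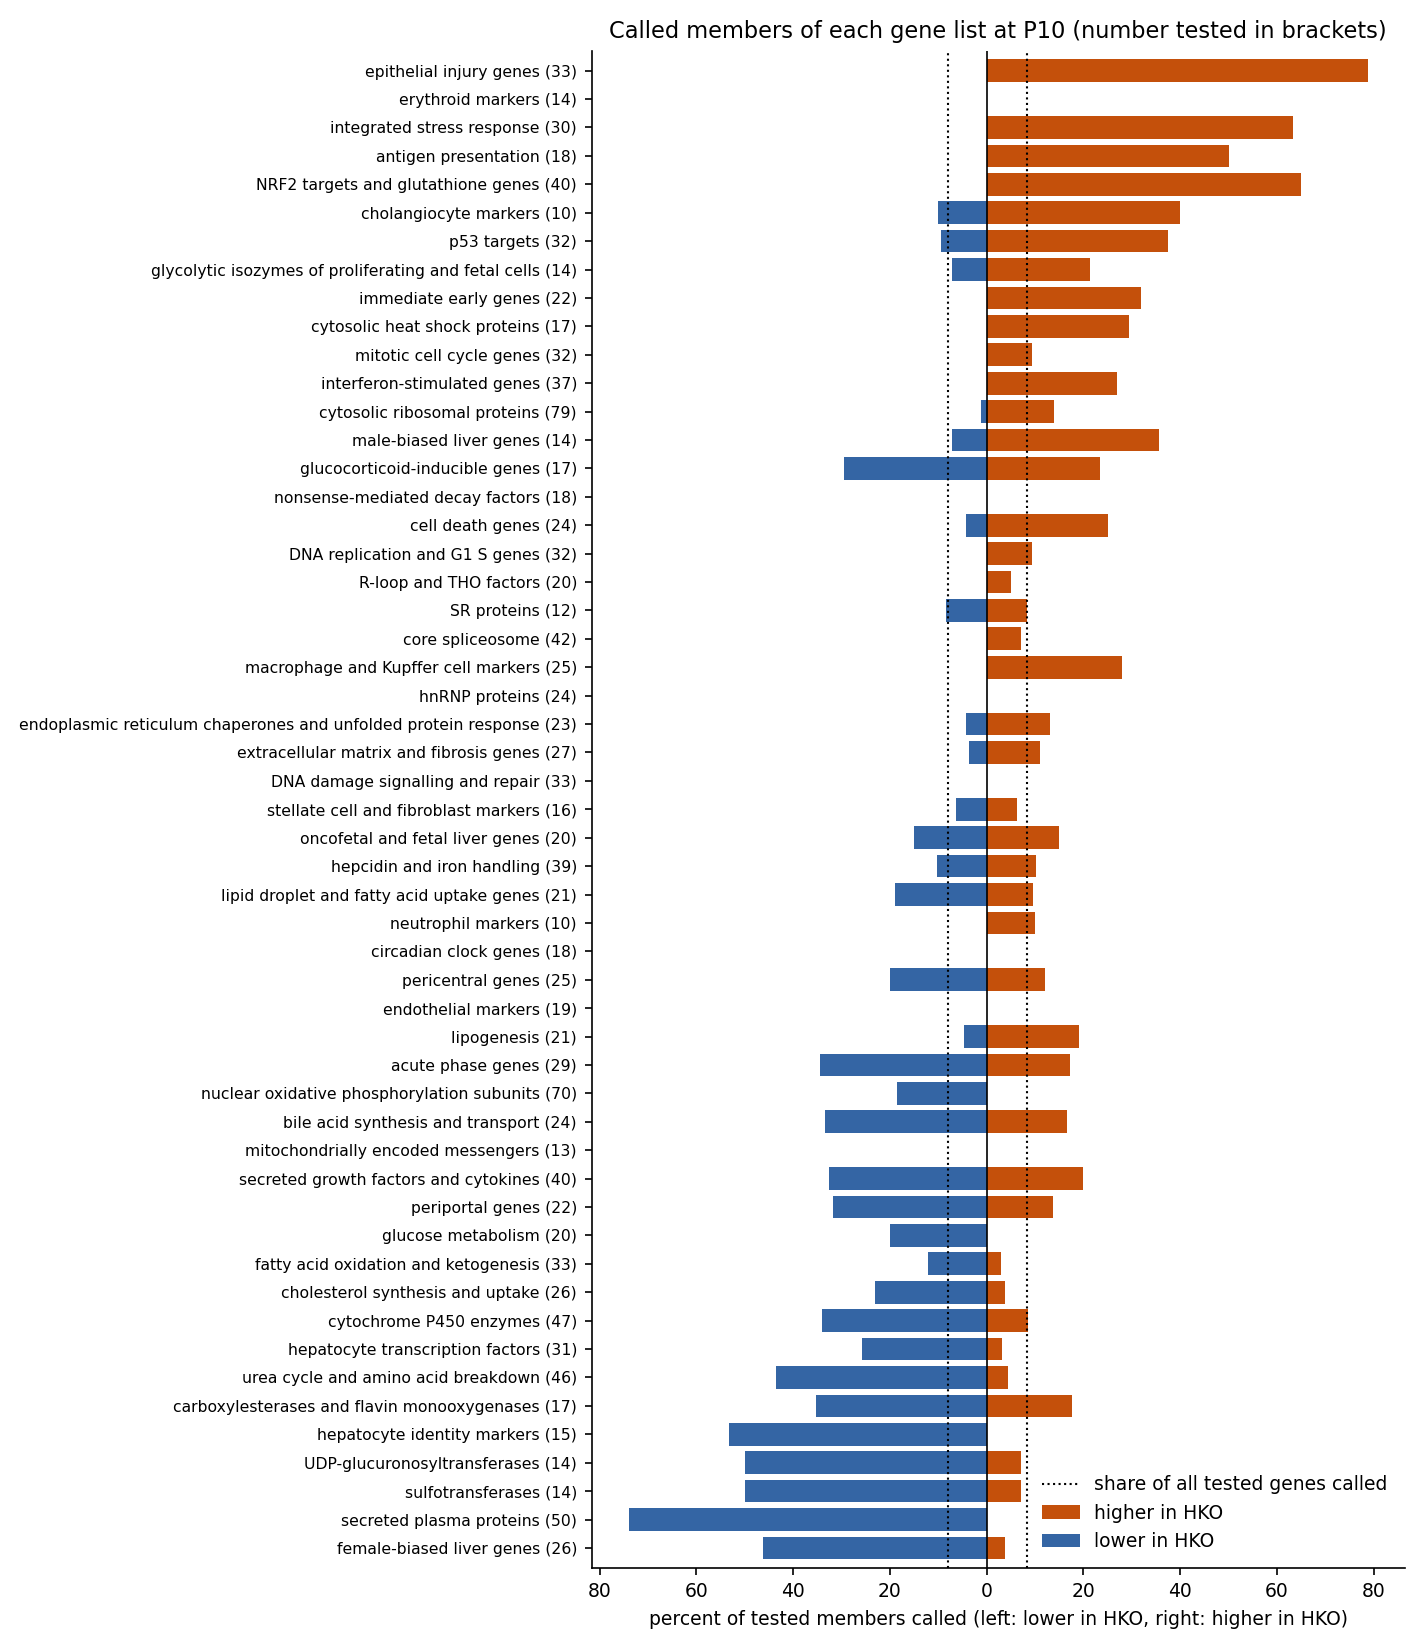
Percent of tested members called at P10 for each list with at least 10 tested genes, ordered by median log2 fold change; bars to the right are genes higher in HKO, bars to the left lower, and dotted lines mark the share over all tested genes (8.44% and 7.95%). Epithelial injury genes reach 26 of 33 higher and secreted plasma proteins 37 of 50 lower. The lists were chosen with earlier results of these data known, so the bars are no independent evidence.

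Because SRSF1 acts on splice sites, the shares of annotated transcripts within each gene were compared. Of 4699 genes with at least 2 transcripts to compare, 72 changed (1.53%), by limma's diffSplice test with a shift of at least 10 percentage points; the median shift among them was 22.5 points. Of these 72 genes 27 were also called in total level, 10 higher and 17 lower, and Hnrnpm alone belonged to the 74 splicing list genes tested for usage. Abhd14a (chromosome 9, 106440051 to 106447678, minus strand), a hydrolase gene, had the largest shift: Abhd14a-201 held 7.16% and 5.99% in the controls and 92.1% and 95.6% in the HKO libraries (adjusted p = 7.25e-07). The rest of its share lay with Abhd14a-202, so the dominant transcript was exchanged. Zfp949-203, of a zinc finger gene, held 11.9% and 5.55% against 82.7% and 85.4% (adjusted p = 0.000634), and Rbp2-202, of a retinol-binding protein gene, 0% and 0% against 56.8% and 64.4% (adjusted p = 0.000268). Gsn-205, of the actin-severing gelsolin, held 8.04% and 10.1% against 76.97% and 50.1%, and Arhgef2-219, of a RhoA exchange factor, 9.39% and 5.87% against 54.2% and 59.2%. Ublcp1-202, of a proteasome phosphatase, held 11.1% and 8.97% against 44.2% and 53.2%, and Hyi-205, annotated as a polymorphic pseudogene transcript, 46.2% and 42.1% against 0.485% and 0%. In all of these the groups stood apart, though the HKO libraries of Gsn differed from each other more than those of Abhd14a. Snd1 and 1600014C10Rik gained short transcripts: Snd1-202, of 110 bases, held 3.52% and 3.15% against 36.2% and 61.3%, and 1600014C10Rik-207, of 784 bases, 1.89% and 1.94% against 19.8% and 18.4%. Because TPM are corrected for length, few reads can give a transcript as short as Snd1-202 a large share, so its switch is uncertain. Transcripts under 200 bases held 12.5% and 10.6% of deposited TPM in the controls and 12.8% and 10.5% in the HKO libraries. The predicted gene Gm47283, placed on the Y chromosome in this annotation, lost share from Gm47283-203 in both HKO libraries (65.3% and 66.98% against 30.7% and 26.3%). It is not among the Y-linked genes summed above, which were almost absent from HKO replicate 2. Usage calls were 13, 20, 113 and 16 with 1 library left out, and 33 on the deposited TPM.

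**Figure D4:**
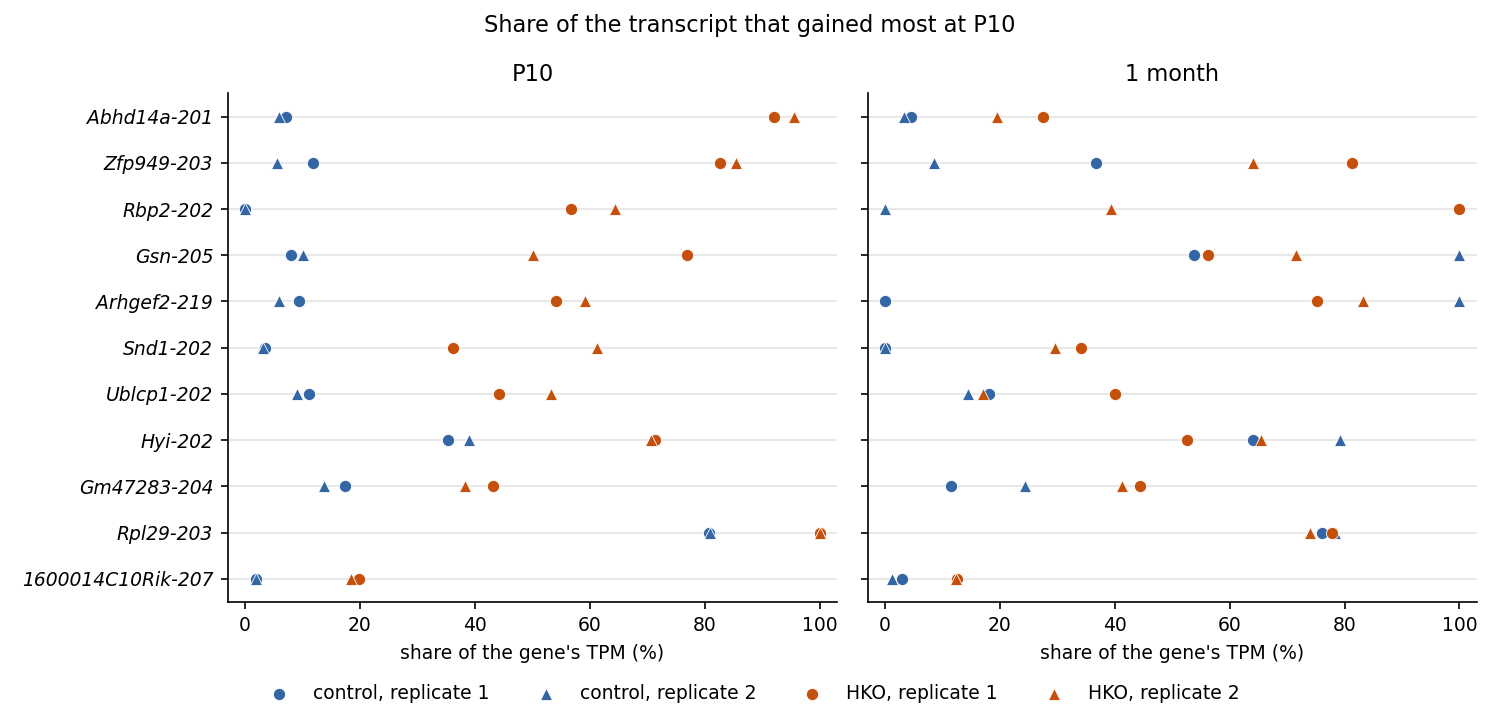
Share of a gene's TPM held by the transcript that gained most at P10, in percent, for Rpl29 and the 10 genes with the largest shifts among called genes averaging at least 5 TPM, at P10 (left) and 1 month (right), 1 point per library, controls in blue and HKO in orange. At P10 the groups are apart in every gene, as in Abhd14a-201 with 7.16% and 5.99% against 92.1% and 95.6%, while at 1 month Gsn-205, Arhgef2-219, Hyi-202, Ublcp1-202 and Rpl29-203 overlap; Rbp2 has no share in control replicate 1 at 1 month.

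Rpl29, Acy1 and Abhd14a are neighbours on chromosome 9, starting at 106429454, 106432981 and 106440051, and all changed in usage; they were 3 of the 15 genes tested for usage within 1 Mb of Rpl29. Rpl29-201 went from 40.9 and 42.1 rescaled TPM to 0 in both HKO libraries, and Rpl29-203 from 172 and 178 to 19.4 and 19.5. Acy1-212 was at 0% in both controls and held 10.5% and 12.6% in the HKO libraries. At 1 month Abhd14a-201 held 4.57% and 3.26% in controls and 27.5% and 19.6% in HKO libraries, and Rpl29 measured 202 and 207 against 74.1 and 91.2 rescaled TPM, so both were shifted in the same direction at that age. As genes, 6 of the 22 tested within 1 Mb of Rpl29 were called (27.3%), and 130 of 692 on chromosome 9 (18.8%), beside 16.4% over all genes. Around Srsf1 itself, on chromosome 11, 8 of the 76 genes tested within 5 Mb were called (10.5%). The region was chosen after its values were seen, and here too a difference between the mouse lines cannot be told apart from the knockout.

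To see which P10 effects differed from those in older animals, the knockout effect at P10 was tested against that at 1 month, with no library shared. Of 12327 genes 683 differed (5.54%), 300 with the P10 effect above and 383 with it below the 1 month effect. At P10 Hamp measured 2.08 and 2.64 in the controls and 649 and 1056 in the HKO libraries, as above. At 1 month it measured 1618 and 719.6 in the controls and 989 and 1022 in the HKO libraries (difference of the log2 fold changes 8.05, SE 0.55, adjusted p = 0.00215). Of the 8 libraries the P10 controls alone were low; the P10 HKO libraries lay 1 within and 1 below the span of the older ones. Lcn2 rose at P10 and fell at 1 month (2.86 at P10 and -1.10 at 1 month), and the same held for Gpt2 (3.28 at P10 and -0.62 at 1 month) and Mt2 (1.63 at P10 and -2.85 at 1 month). Rgs16, a regulator of G protein signalling, and Mup11, a urinary protein with near-identical copies, fell at 1 month and did not pass at P10 (0.37 at P10 and -3.75 at 1 month, and -0.15 at P10 and -3.94 at 1 month). In the other direction stood Sult2a2, at 1 month 0.0247 and 0.259 in the controls and 6.89 and 23.4 in the HKO libraries (difference of the log2 fold changes -7.68, SE 0.83, adjusted p = 0.00722). It fell in pups, whose controls were at 347 and 323, and rose at 1 month, when controls were near 0. Sult2a1 (-2.76 at P10 and 2.50 at 1 month) behaved alike, and Sult2a5 fell at P10 and did not pass at 1 month (-2.65 at P10 and 1.08 at 1 month). Cyp3a41a (-1.53 at P10 and 4.41 at 1 month) and the imprinted noncoding RNA H19 (-0.76 at P10 and 5.32 at 1 month) rose at 1 month without passing at P10. Prok1 at 1 month measured 0.509 and 0.466 in the controls and 0.563 and 0.449 in the HKO libraries (difference of the log2 fold changes -4.26, SE 0.28, adjusted p = 0.00215). All 4 older libraries were under 1 rescaled TPM, as was HKO replicate 2 of P10. Of 32 mitotic genes 25 had a larger effect at 1 month (median 0.36 at P10 and 2.10 at 1 month). Of 79 ribosomal protein genes 43 had a higher effect at P10 (median 0.33 and -0.53). Of the genes called at P10, 708 were also called at 1 month, 635 of them in the same direction. The count of genes that differed was 118, 84, 605 and 259 with 1 P10 library left out. It was 391 without HKO replicate 1 of 1 month and 345 on the deposited TPM.

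**Figure D5:**
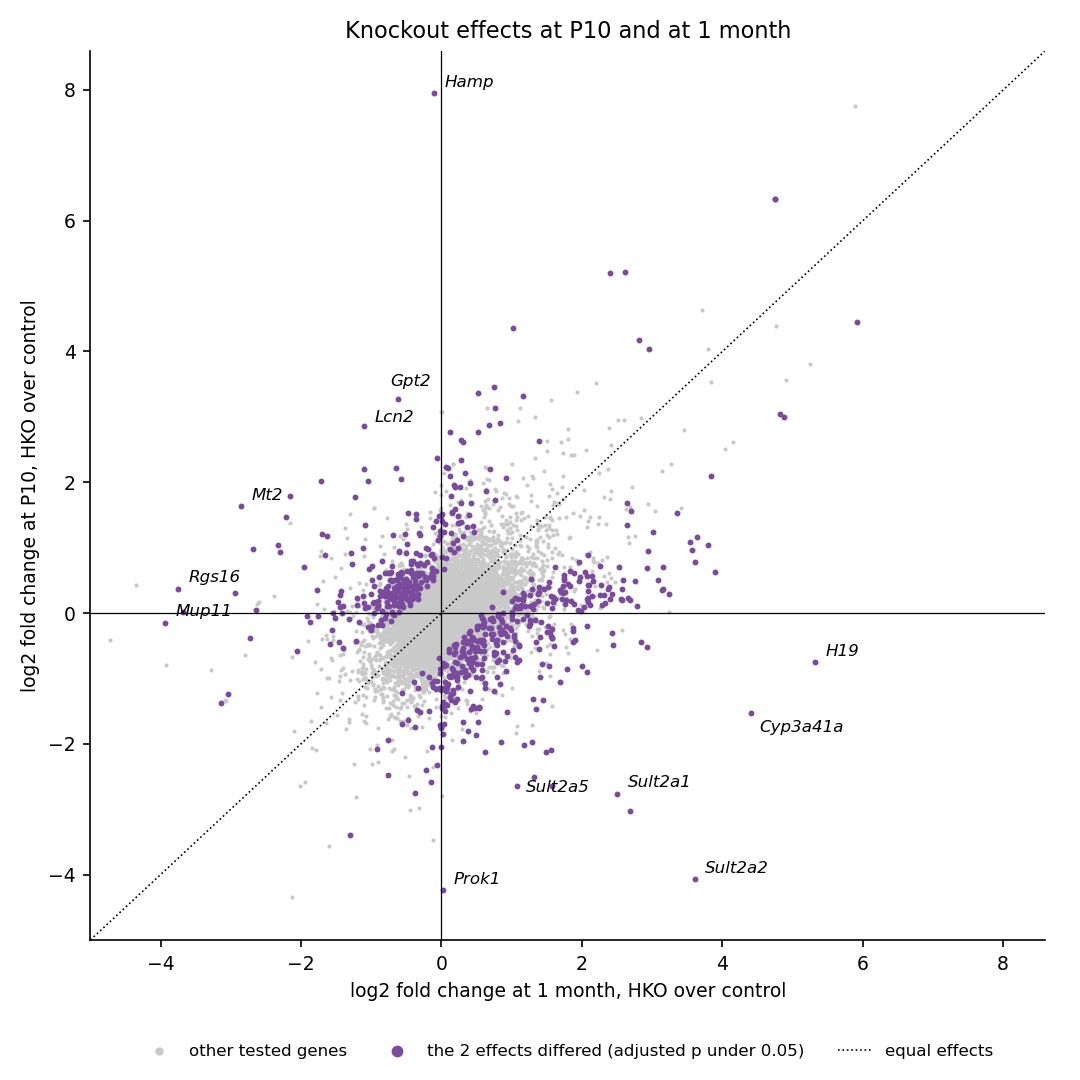
Log2 fold change, HKO over control, at P10 (vertical) against 1 month (horizontal) for all 12327 tested genes, 1 point per gene; purple points are the 683 genes whose effects differed, and the dotted line marks equal effects. Hamp lies at 7.95 at P10 and -0.10 at 1 month, and Sult2a2 at -4.07 and 3.61.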

How the data were processed

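Purified hepatocytes were sequenced as stranded polyA-selected libraries, per the labels' protocols. The authors deposited transcript abundances in TPM. The submitters' processing notes name bcl2fastq 2.17.1.14, kallisto 0.46.0, DESeq2 and the build GRCm38. Per the file headers, the authors' deposited P10 gene table holds a mean normalised signal (baseMean), a log2 fold change and its SE, a test score (stat), a p-value and an adjusted p-value.

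From these, TPM were summed per gene and divided by median-ratio factors (rescaled TPM). Genes averaging 1 TPM or more in the 4 P10 libraries were tested on log2(rescaled TPM + 1) with limma 3.58.1 (R 4.3.3, trend, two-sided). The P10 and 1 month libraries, 8 in all, were fitted together as 4 groups, which leaves 4 residual degrees of freedom. Fold changes on this scale understate low genes. Adjusted p-values are Benjamini-Hochberg across every gene tested, called under 0.05. Transcript usage was tested with diffSplice on transcripts with at least 1 TPM and 5% of their gene; unannotated isoforms are not seen. Of 54446 gene identifiers 53229 matched GENCODE M21, which gave coordinates. The tests were run on simulated data. For genes, normal noise of the fitted spread was used. Of 100 genes changed by a log2 fold of 1, 90% were recovered, and of 100 changed by 2, 98%. There were 18 false calls among unchanged genes. For usage, 79.6% of 54 switched genes were recovered, with 0 false calls. There the HKO libraries were controls with small added noise, so the real spread was not covered.

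The text names the SR proteins, the 14 largest rises and falls among genes that passed, whose groups did not overlap and that averaged at least 5 TPM (predicted genes, pseudogenes and sex-linked RNAs left out), up to 5 passing members of each of 60 gene lists by p, members that moved against their list, regulators, cell type markers, the 6 largest age differences each way and the 10 largest usage changes, both among called genes averaging at least 5 TPM. Members and lists were chosen with earlier results of these data known. Alternatives covered the scaling, pseudocount, filter on low TPM, libraries in the fit, a replicate block and each library left out. Some genes counted in the lists are not reported here by name.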

Additional observations from a re-analysis of the deposited data

Results flagged for a closer look

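The effect of the knockout differed between P10 and 1 month in 683 genes by a test of the difference itself (limma, adjusted over all genes tested), and the 12 named genes with the largest differences each way are listed here. The difference, P10 minus 1 month on the log2 scale, was 8.05 in Hamp, 4.49 in Mt2, 4.12 in Rgs16, 3.96 in Lcn2, 3.89 in Gpt2 and 3.79 in Mup11. It was -7.68 in Sult2a2, -6.08 in H19, -5.94 in Cyp3a41a, -5.26 in Sult2a1, -4.26 in Prok1 and -3.73 in Sult2a5. In 5 of the 12, namely Sult2a2, Sult2a1, Lcn2, Gpt2 and Mt2, the knockout effect passed at both ages in opposite directions. Sult2a2, Sult2a1, Sult2a5 and Cyp3a41a are known as female-biased in adult liver, and the P10 HKO group holds 1 library with Xist RNA; the part of sex in these differences was not tested.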

How the results depend on the processing

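None of the named genes that passed changed direction under the alternatives run, but many calls rest on single libraries and on the scaling. Of genes that did not pass, Tra2a turned from 0.09 to -0.0079 (log2FC) without HKO replicate 2. Of 229 named genes that passed at P10, 169 still passed on the deposited TPM, 210 with a pseudocount of 0.1, 167 with no filter on low TPM, 222 with the P10 libraries fitted alone, 127 without HKO replicate 2, 182 without HKO replicate 1, 80 without control replicate 1 and 100 without control replicate 2.

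Genes higher at P10, 1040 as reported, numbered 3769 on coding-gene TPM and 2576 in the authors' deposited table, and 205 to 765 with 1 library left out. Genes lower, 980 as reported, numbered 255 on the deposited TPM, 392 on coding-gene TPM, 1547 with the P10 libraries alone and 2269 in the authors' deposited table, and 101 to 762 with 1 library left out. Genes with changed usage, 72 as reported, numbered 33 on the deposited TPM, 150 with no filter, 29 at an average of 5 TPM or more and 40 with a shift of at least 20 points, and 13 to 113 with 1 library left out. Genes whose effects differed between ages, 683 as reported, numbered 345 on the deposited TPM, 449 with the replicate number as a block and 84 to 887 with 1 library left out. Other alternatives kept these counts within 1.5 times. In fits that left a group with 1 library, that library was assumed to vary like the other groups.

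The labels do not say that replicate numbers pair the samples. Deviations of same-numbered libraries correlated at 0.00227 at P10 and 0.218 at 1 month, across genes. With the replicate number as a block, 963 genes were higher and 996 lower, 95 changed in usage and 449 differed between ages.

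Read depth is unknown, so the precision of single low values cannot be given.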

Other observations

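Zonation genes, which mark hepatocytes near the central or the portal vein, split at P10. Of 25 pericentral genes 5 fell, with Cyp2e1, Cyp1a2, Rgn (657 and 620.0 against 234 and 172, log2FC -1.66) and Lect2 (log2FC -1.07), and 3 rose, with Cyp2a5 and the ammonium transporter Rhbg (3.22 and 3.76 against 11.3 and 9.15, log2FC 1.32). Of 22 periportal genes 7 fell and 3 rose, the rises being the apolipoprotein Apoa4 (34.4 and 41.9 against 271 and 433, log2FC 3.14), the immunoglobulin transporter Pigr (3.28 and 2.26 against 12.3 and 7.60, log2FC 1.52) and the cadherin Cdh1 (33.9 and 36.8 against 74.5 and 77.4, log2FC 1.08). The medians, -0.09 and -0.34, turned to 0.221 and near 0 on coding-gene TPM, and without HKO replicate 2 the calls were 1 lower pericentral gene, 5 lower periportal genes and 1 higher.

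Glucocorticoid-inducible genes were divided as well, with 4 higher and 5 lower of 17 (median 0.25), and 2 higher and 4 lower without HKO replicate 2. The classical targets Fkbp5 (41.6 and 36.02 against 15.3 and 13.2, log2FC -1.38) and Tsc22d3 (19.4 and 18.7 against 7.39 and 9.20, log2FC -1.12) fell, while Sgk1 (28.7 and 30.7 against 47.6 and 75.4, log2FC 0.99) rose. Of 27 matrix and fibrosis genes Timp1, an inhibitor of matrix proteases (0.0718 and 0.158 against 5.39 and 7.93, log2FC 2.76), Col1a1 (log2FC 0.94) and Lama5 (log2FC 0.95) rose, and Fn1, also a plasma protein, fell (585 and 631 against 406 and 351, log2FC -0.69). Of 14 glycolytic isozymes of fetal and dividing cells Aldoa (33.9 and 35.9 against 75.1 and 90.2, log2FC 1.21), Slc2a1 (log2FC 0.84) and Pfkp (log2FC 0.60) rose and Pdk1 fell (log2FC -0.71), none of which passed without HKO replicate 2. None of 18 circadian clock genes passed in limma; 5 had an unadjusted p under 0.05, and the authors' deposited table called 2 higher and 5 lower.

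By annotated class, transcripts with a retained intron held 2.41% and 2.41% of deposited TPM in the controls and 2.46% and 2.82% in the HKO libraries, and decay targets 0.759% and 0.756% against 0.893% and 0.863%. Among the 72 genes with changed usage, a transcript with a retained intron gained most in 4 and lost most in 6, and a decay target gained most in 2 and lost most in 1.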
